A study of Mus musculus with 22 samples.

Results

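Genes that cells switch on in response to interferons were followed through mouse colon with experimentally induced colitis, in animals that had drunk distilled water or one of the deep sea waters. They are the 10 genes Ifit1, Ifit2, Ifit3, Isg15, Irf7, Oasl2, Usp18, Rsad2, Rtp4 and Bst2, taken by name from the 23997 genes of the expression table, and 10 of 10 passed the filter on low values. The 22 libraries hold colon RNA of BALB/c mice, labelled wild type in every group. The DSS group (n = 5, replicates 1, 2, 5, 6 and 7) drank distilled water and received 5% dextran sulfate sodium, which damages the epithelial lining of the colon, in the last week. The HMLS group (n = 4, replicates 3, 6, 7 and 8) and the TM group (n = 5, replicates 3, 5, 6, 7 and 8) drank a deep sea water known only by that abbreviation and received the same 5% polymer for the same week. The CON group (n = 8, replicates 1 to 8) drank distilled water without it. Per the labels the mice were 5 weeks old and drank the waters for 3 weeks, and the series text places the induction of colitis in mice 8 weeks old. Nothing in the labels says that the libraries came from separate mice, so the p-values below measure the spread between these samples, which may be partly technical.

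Interferons are secreted proteins that warn cells of viruses and other microbes. Type I and type III interferons act through the receptors Ifnar1 with Ifnar2 and Ifnlr1 with Il10rb, and the kinases bound to these receptors activate transcription factors such as Stat2, which joins Irf9 at a GAAA repeat in the promoters of target genes. Interferon gamma acts through another receptor, and its targets include the immunity-related GTPases and the antigen processing genes. In the gut, type III interferon signals mainly to epithelial cells, and tonic interferon signals keep many of these genes on at a low level without infection.

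The promoters of 8 of the 10 genes were found in RefSeq (GRCm38.p6), and those of Usp18 and Rtp4 were not used here. A window from 250 bases before to 50 bases after each gene start was searched on both strands for the 10-letter GAAANNGAAA, which reads TTTCNNTTTC on the other strand. It was present in 5 of the 8 genes, against 3.99% of 27025 genes and 3.44% of 32851 windows. The 160 bases before the start are shown for these 5 genes, because their windows held a match. The bases run 5′ to 3′ on the strand of the gene, with every match in capitals. Irf7 is shown beside these genes because it was the gene that differed from CON in all 3 colitis groups. Its window held no match.
Isg15: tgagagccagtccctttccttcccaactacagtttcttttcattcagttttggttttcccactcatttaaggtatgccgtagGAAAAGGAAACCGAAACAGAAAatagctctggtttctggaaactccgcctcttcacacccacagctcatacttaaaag
Ifit3: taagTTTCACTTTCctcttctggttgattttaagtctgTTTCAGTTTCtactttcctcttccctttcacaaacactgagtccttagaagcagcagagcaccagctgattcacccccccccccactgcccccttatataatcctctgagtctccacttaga
Ifit1: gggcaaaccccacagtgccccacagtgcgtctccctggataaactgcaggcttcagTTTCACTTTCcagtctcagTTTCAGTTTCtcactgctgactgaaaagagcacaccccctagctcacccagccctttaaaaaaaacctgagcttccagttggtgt
Bst2: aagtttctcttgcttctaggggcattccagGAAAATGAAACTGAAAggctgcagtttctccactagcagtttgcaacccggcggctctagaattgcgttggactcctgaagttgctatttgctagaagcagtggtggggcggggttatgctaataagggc
Rsad2: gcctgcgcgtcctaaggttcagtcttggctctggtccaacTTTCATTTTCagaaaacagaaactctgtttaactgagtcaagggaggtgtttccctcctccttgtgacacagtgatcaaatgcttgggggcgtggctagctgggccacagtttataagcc
Irf7: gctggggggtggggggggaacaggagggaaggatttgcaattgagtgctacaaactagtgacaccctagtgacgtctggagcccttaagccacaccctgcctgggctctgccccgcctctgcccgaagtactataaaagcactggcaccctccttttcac
These stretches lie at chr4:156200819-156200978 on the minus strand for Isg15, chr19:34583369-34583528 on the plus strand for Ifit3 and chr19:34640729-34640888 on the plus strand for Ifit1. Those of Bst2, Rsad2 and Irf7 lie at chr8:71537473-71537632 on the minus strand, chr12:26456453-26456612 on the minus strand and chr7:141266425-141266584 on the minus strand. Isg15 held 3 overlapping matches that began 78, 72 and 66 bases before the start. Bst2 held 2 overlapping ones at 130 and 124 bases, Ifit3 held 2 at 156 and 122 bases, Ifit1 held 2 at 104 and 85 bases, and Rsad2 held 1 at 120 bases. No match was found in the windows of Oasl2, Irf7 and Ifit2, which says only that these letters are not there. Ifit1, Ifit2 and Ifit3 lie near each other on chromosome 19, and Ifit3 shares 51.2% of its 50-base words with the nearby copy Ifit3b. Reads of Ifit3 and Ifit3b could be divided between them, so the values of Ifit3 are uncertain. The same share was 13.6% for Rtp4, 7.13% for Ifit1 and 3.96% for Isg15, and 0 for the other members.

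The values are FPKM, fragments scaled to transcript length and to the mapped total of the library, and all differences are log2 fold changes of FPKM + 1, which understate the change of genes near 1 FPKM. A gene was called when its limma p, adjusted over all genes tested, was under 0.05. The libraries held 48089882 to 68733410 reads, of which 82.3% to 88.9% were mapped in DSS, 88.8% to 90.5% in HMLS and 89.5% to 92.7% in TM, against 89.9% to 91.9% in CON. The mapped shares of DSS overlapped neither those of CON nor those of TM. Mapping and group therefore cannot be told apart in DSS vs CON or in TM vs DSS. Colonic epithelial markers were abundant in every library (Epcam between 617 and 923 FPKM). The summed level of 5 neutrophil markers was 3.04 to 71.5 FPKM in DSS, 2.02 to 23.8 FPKM in HMLS and 5.57 to 96.4 FPKM in TM, against 0.665 to 2.12 FPKM in CON. In whole colon, fewer cells that express a gene and less RNA per cell cannot be told apart.

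Over the 22 libraries Irf7 was the most abundant member, with a mean of 51.9 FPKM. Ifit1 followed at 11.2 FPKM, and Bst2, Oasl2, Ifit2 and Rtp4 lay between 4.02 and 6.64 FPKM. Isg15, Rsad2, Usp18 and Ifit3 had means of 2.93, 2.54, 1.92 and 1.53 FPKM. Irf7 was above Ifit1 in 22 of 22 libraries, and Rsad2 was above Usp18 in 19 of 22. Other neighbours in this order overlapped in every group. In these pairs the gene with the higher mean was above the other in 9 to 18 of 22 libraries. The 18 were those of Rtp4 over Isg15, and the order was not tested.

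**Figure D1:**
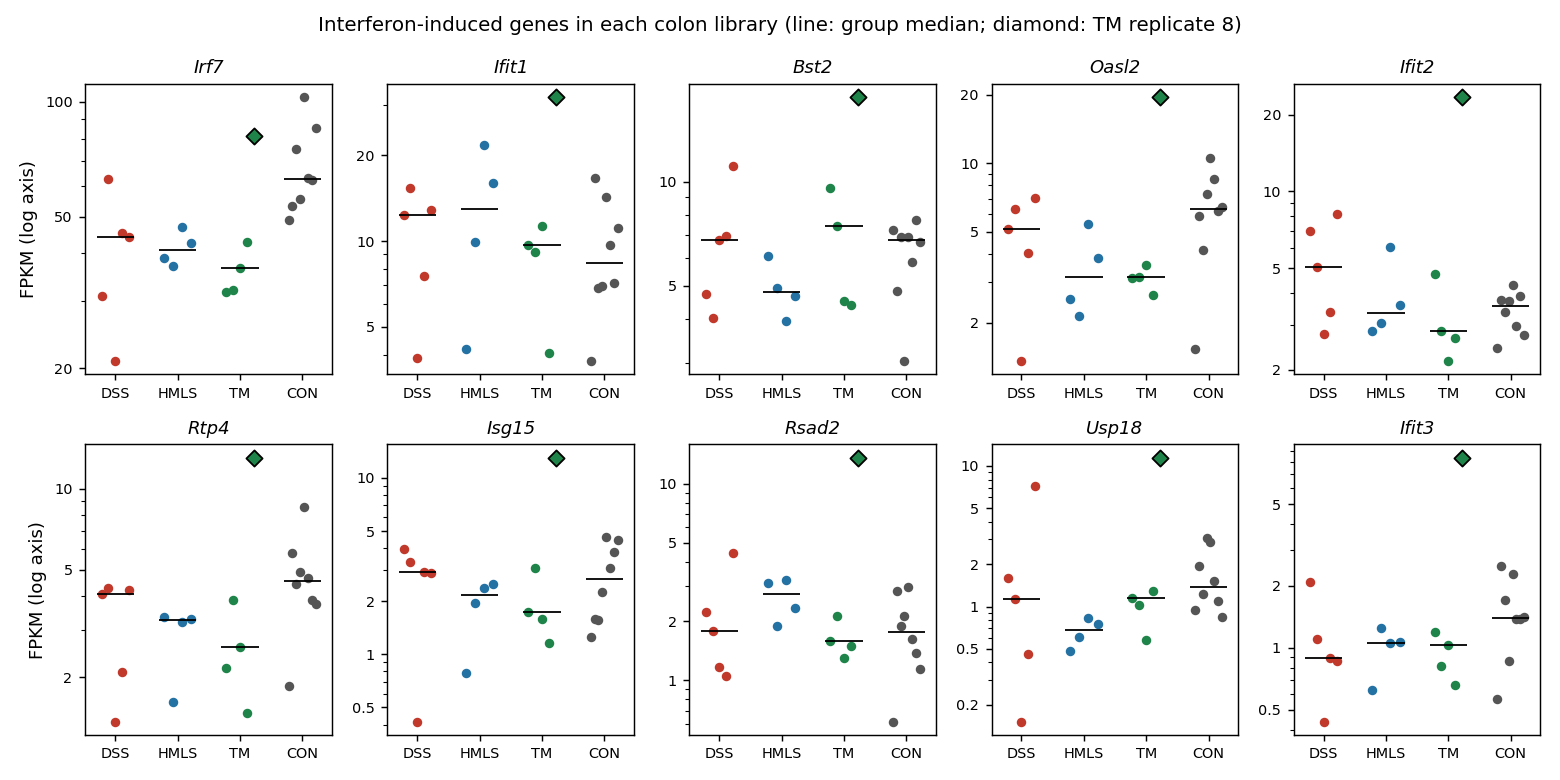
Each panel plots the FPKM of 1 gene (log axis) in the libraries of DSS, HMLS, TM and CON, with the group median as a line and TM replicate 8 as a diamond. TM replicate 8 is the highest of the 22 libraries in every panel but that of Irf7, and the Irf7 values of HMLS lie below all of CON.

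None of the 10 genes was called higher in colitis, and the called ones were lower. In DSS vs CON 1 of 10 members was called, Irf7, where 27.1% of 13483 genes tested were called. In HMLS vs CON 2 of 10 were called, Irf7 and Usp18, where 34.1% of 13400 genes were, and in TM vs CON 1 of 10 was, Irf7, where 26% of 13485 genes were. These shares of the members were no higher than those of all genes. Among all genes 13.1%, 16.6% and 11.8% were called lower in DSS, HMLS and TM. Irf7 and Usp18 in HMLS against CON were the 2 pairs of groups that did not overlap in any member, where 14.8% of 13786 genes did not overlap. No member was separated in DSS against CON or in TM against CON, where 7.73% and 7.99% of genes were.

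Irf7, the transcription factor that amplifies type I interferon production, was the only member lower than CON in all 3 colitis groups by the test. On GRCm38 it lies at chr7:141262706-141266481 on the minus strand. It stood at 30.9, 62.7, 20.9, 45.3 and 44.2 FPKM in DSS replicates 1, 2, 5, 6 and 7. In HMLS replicates 3, 6, 7 and 8 it stood at 39.0, 37.0, 47.0 and 42.7 FPKM. In TM replicates 3, 5, 6, 7 and 8 it stood at 31.7, 32.1, 36.6, 42.9 and 81.2 FPKM, whereas CON ranged from 49.0 to 103 FPKM with a median of 62.7 FPKM. All 4 HMLS libraries, 4 of 5 DSS libraries and 4 of 5 TM libraries were below the lowest CON library, and the exceptions were DSS replicate 2 and TM replicate 8.

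Irf7 fell by 0.78 ± 0.231 in DSS (SE; log2; limma adjusted p = 0.0227), by 0.67 ± 0.172 in HMLS (adjusted p = 0.00838) and by 0.65 ± 0.223 in TM (adjusted p = 0.044), each relative to CON. These 3 comparisons share the CON libraries and are therefore not independent of each other. Without DSS replicate 5, the lowest of all libraries, the difference in DSS was -0.57 with an adjusted p of 0.0572. The call in TM was lost without any 1 of TM replicates 3, 5, 6 and 7 or CON replicates 3, 5, 6, 7 and 8, with adjusted p-values up to 0.117, while without TM replicate 8 the difference was -0.88 ± 0.176 (adjusted p = 0.00479). With the percent of reads mapped as a covariate, Irf7 was called in none of the 3 comparisons (limma adjusted p = 0.231 in DSS, 0.119 in HMLS and 0.0509 in TM). The differences were then -1.005 in DSS, -0.47 in HMLS and -0.67 in TM. The Irf7 call in DSS was also lost with the replicate number as a block (-0.72, limma adjusted p = 0.133). In TM its call was also lost with all 22 libraries in the fit (adjusted p = 0.0571) and with no filter on low values (adjusted p = 0.0638).

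Usp18 removes Isg15 from proteins and also dampens the type I receptor, and it was the second member that differed from CON in HMLS. On GRCm38 it lies at chr6:121245906-121270917 on the plus strand. Its values in HMLS replicates 3, 6, 7 and 8 were 0.480, 0.609, 0.822 and 0.749 FPKM. In DSS replicates 1, 2, 5, 6 and 7 they were 1.60, 1.13, 0.152, 0.456 and 7.24 FPKM, and in TM replicates 3, 5, 6, 7 and 8 they were 1.14, 1.02, 0.574, 1.29 and 11.5 FPKM. CON ranged from 0.846 to 3.08 FPKM with a median of 1.38 FPKM. Every HMLS library lay below every CON library, while DSS and TM each had libraries below and above the CON range. The fold between the highest and the lowest library was 47.7 in DSS, the widest of any member in any group, and only 1.71 in HMLS. Usp18 fell by 0.64 ± 0.209 in HMLS relative to CON (limma adjusted p = 0.0287). That call was lost without HMLS replicate 3, 6 or 8 (limma adjusted p up to 0.0739) and with all 22 libraries in the fit (adjusted p = 0.306). It was also lost with the percent of reads mapped as a covariate (limma adjusted p = 0.178) and with the replicate number as a block (-0.38, adjusted p = 0.223). The differences from CON were -0.12 ± 0.376 in DSS (adjusted p = 0.838) and 0.15 ± 0.413 in TM (adjusted p = 0.809).

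Isg15, the ubiquitin-like protein that is attached to other proteins during the response, was not called in any comparison. It had 3.94, 3.36, 0.415, 2.94 and 2.90 FPKM in DSS replicates 1, 2, 5, 6 and 7 and 0.784, 1.95, 2.38 and 2.50 FPKM in HMLS replicates 3, 6, 7 and 8. In TM replicates 3, 5, 6, 7 and 8 it had 1.74, 3.10, 1.58, 1.16 and 13.0 FPKM, against a range of 1.26 to 4.66 FPKM and a median of 2.68 FPKM in CON. In each colitis group most libraries fell inside the CON range, with DSS replicate 5, HMLS replicate 3 and TM replicate 7 below it and TM replicate 8 far above it. The differences from CON were -0.08 ± 0.304 in DSS (limma adjusted p = 0.86), -0.37 ± 0.267 in HMLS (adjusted p = 0.304) and 0.10 ± 0.400 in TM (adjusted p = 0.875).

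The Ifit proteins bind foreign or unmodified RNA and block its translation. Ifit2 had 7.03, 5.03, 2.77, 3.38 and 8.18 FPKM in DSS replicates 1, 2, 5, 6 and 7, and 2.85, 3.06, 6.04 and 3.59 FPKM in HMLS replicates 3, 6, 7 and 8. In TM replicates 3, 5, 6, 7 and 8 it had 4.74, 2.85, 2.17, 2.67 and 23.5 FPKM, against 2.44 to 4.30 FPKM in CON with a median of 3.55 FPKM. In DSS, replicates 1, 2 and 7 exceeded the highest CON library. The difference between DSS and CON was 0.45 ± 0.196 and was not called (limma adjusted p = 0.1), but without DSS replicate 5 it was 0.61 and was called (adjusted p = 0.0262). In HMLS and TM the differences from CON were 0.12 ± 0.166 (adjusted p = 0.592) and 0.40 ± 0.385 (adjusted p = 0.464).

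Ifit1 ranged from 3.88 to 15.4 FPKM in DSS, from 4.18 to 21.7 FPKM in HMLS and from 4.05 to 32.0 FPKM in TM, against 3.80 to 16.7 FPKM in CON. Its groups overlapped throughout, and its SD within HMLS, 0.93 on the log2 scale, was the largest of the 10 members there. Ifit3 ranged from 0.438 to 2.08 FPKM in DSS, from 0.622 to 1.25 FPKM in HMLS and from 0.663 to 8.41 FPKM in TM, against 0.563 to 2.50 FPKM in CON. Neither gene was called in any comparison, and their differences from CON lay between -0.30 and 0.31.

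Oasl2, a member of the oligoadenylate synthetase family, had 2.53, 2.13, 5.42 and 3.83 FPKM in HMLS replicates 3, 6, 7 and 8, and 3.14, 3.18, 3.56, 2.65 and 19.6 FPKM in TM replicates 3, 5, 6, 7 and 8. DSS libraries had 5.13, 6.33, 1.36, 4.05 and 7.05 FPKM in replicates 1, 2, 5, 6 and 7, and CON ranged from 1.53 to 10.6 FPKM with a median of 6.29 FPKM. All HMLS libraries and 4 of 5 TM libraries lay below the CON median but above the lowest CON library, CON replicate 1. The difference from CON was -0.34 ± 0.342 in DSS (limma adjusted p = 0.476), -0.65 ± 0.331 in HMLS (adjusted p = 0.142) and -0.25 ± 0.431 in TM (adjusted p = 0.698). Without CON replicate 1, Oasl2 was called lower in HMLS at -0.85 (adjusted p = 0.0114). Rtp4, a chaperone for receptors at the cell surface that interferon induces, was called there as well at -0.66 (adjusted p = 0.0225), against -0.52 ± 0.245 (adjusted p = 0.109) with all libraries. Rtp4 ranged from 1.62 to 3.35 FPKM in HMLS, from 1.37 to 4.29 FPKM in DSS and from 1.48 to 13.0 FPKM in TM, against 1.85 to 8.58 FPKM in CON.

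Rsad2, also named viperin, makes a nucleotide that stops viral polymerases. It had 3.13, 1.89, 3.23 and 2.34 FPKM in HMLS replicates 3, 6, 7 and 8, and 2.23, 1.78, 1.17, 1.06 and 4.43 FPKM in DSS replicates 1, 2, 5, 6 and 7. In TM replicates 3, 5, 6, 7 and 8 it had 1.59, 2.12, 1.29, 1.49 and 13.6 FPKM, against 0.615 to 2.97 FPKM in CON with a median of 1.76 FPKM. All HMLS libraries were above the CON median, and 2 of them exceeded the highest CON library. The difference between HMLS and CON was 0.41 ± 0.215 and was not called (limma adjusted p = 0.155). Bst2, also named tetherin, holds budding virus particles at the cell surface. It ranged from 4.04 to 11.1 FPKM in DSS, from 3.95 to 6.10 FPKM in HMLS and from 4.39 to 17.6 FPKM in TM, against 3.03 to 7.76 FPKM in CON, and was called in no comparison.

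The median difference of the 10 members was -0.10 in DSS vs CON and -0.33 in HMLS vs CON, and it was 0.13 in TM vs CON. The medians of all genes tested were -0.01, 0.00 and 0.01. Members with a positive difference numbered 4 in DSS, 3 in HMLS and 7 in TM. With each library scaled to its upper quartile the medians of all genes were -0.11, -0.143 and -0.0968 in these comparisons and those of the members -0.17, -0.44 and 0.05, and 2 members were positive in DSS, 2 in HMLS and 7 in TM. Under that scaling the share of called genes that were higher was 32.6%, 26% and 31%, against 51.7%, 51.2% and 54.8% with FPKM as deposited. Without DSS replicate 5 the members' median in DSS vs CON was 0.10 with 6 of 10 positive, and with the percent of reads mapped as a covariate it was -0.35 with 2 positive. Without TM replicate 8 it was -0.36 in TM vs CON, with 1 positive.

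**Figure D2:**
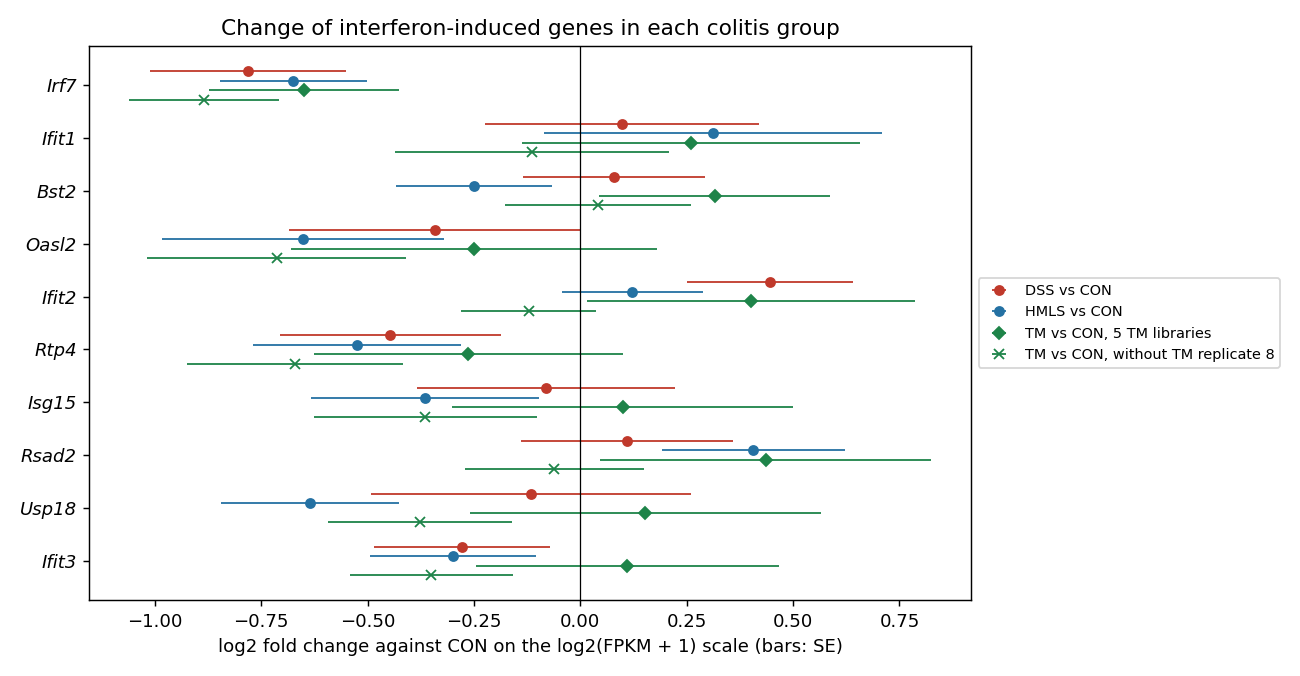
Points are log2 fold changes against CON with their SE for the 10 genes in DSS, HMLS and TM, with a cross for TM without replicate 8. Irf7 lies left of 0 in every group, and the crosses of TM lie left of the diamonds for all 10 genes.

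Between the waters no member differed beyond the spread of the libraries. The pairs HMLS with DSS, TM with DSS and HMLS with TM each had 0 of 10 members called by limma and 0% of 13341 genes. At an unadjusted p under 0.05 there were 0 members in each, and 740 genes (5.55%), 367 genes (2.75%) and 1260 genes (9.44%). The intervals were wide: for Irf7 the 95% interval was -0.53 to 0.74 in HMLS vs DSS, -0.47 to 0.73 in TM vs DSS and -0.66 to 0.61 in HMLS vs TM. The largest difference between waters in size was that of Usp18 in HMLS vs TM, -0.79 ± 0.583 (95% interval -2.03 to 0.46; limma adjusted p = 0.691). No member was separated between these groups, where 1.17%, 0.515% and 3.87% of genes did not overlap in HMLS against DSS, TM against DSS and HMLS against TM.

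The direction of TM vs DSS turned on TM replicate 8 and on DSS replicate 5. With all libraries, 9 of 10 members had a positive difference in TM vs DSS with a median of 0.18, and without TM replicate 8 0 of 10 had one, with a median of -0.22. Without DSS replicate 5, and with TM replicate 8 kept, 4 of 10 had one, with a median of -0.0425. Fitted with the percent of reads mapped as a covariate, 10 of 10 had one, with a median of 0.53, and limma called 0 genes. The differences without TM replicate 8 ranged from -0.57 for Ifit2 (95% interval -1.17 to 0.03) to -0.04 for Bst2 (95% interval -0.60 to 0.52), and limma called none of them with or without that library.

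This library stood apart in the members more than in the transcriptome. It held the highest value of all 22 libraries in 9 of 10 members, against 3.05% of 13786 genes. Usp18 was 11.4-fold, Ifit3 9.10-fold, Rsad2 8.37-fold and Ifit2 7.55-fold the mean of the other 4 TM libraries in FPKM, and Irf7 was 2.27-fold. Averaged over the 10 genes, its log2 value was 1.75 above the CON mean, while the other TM libraries lay between -0.58 and -0.21. Its depth of 62166600 reads and mapping of 91.1% were inside the range of the other libraries.

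**Figure D3:**
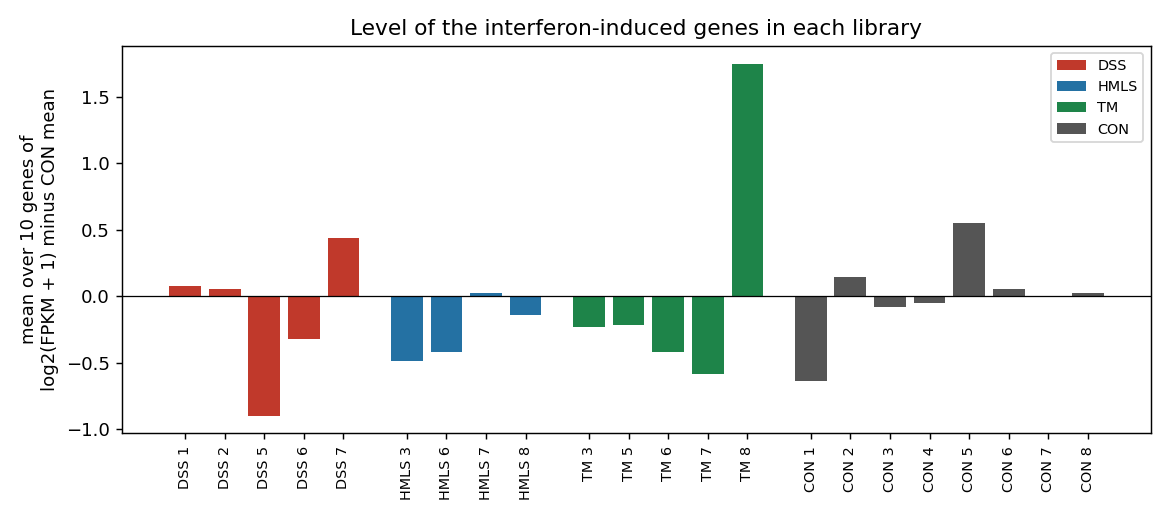
Bars give, for each library, the mean over the 10 genes of log2(FPKM + 1) minus the mean of CON. TM replicate 8 stands at 1.75, the next highest is CON replicate 5 at 0.55, and the lowest is DSS replicate 5 at -0.90.

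The remainder of the pathway in TM replicate 8 was read from 4 further lists. All 24 tested genes of the list named interferon gamma induced were highest there. Their median was 2.92 on the log2 scale above the other TM libraries, against 2.31 for the 10 members and 0.01 for all genes. Of that list, and named after their values were seen, the immunity-related GTPases Iigp1 and Igtp had 130 and 112 FPKM in TM replicate 8, where the next highest of the 22 libraries had 10.3 and 14.5 FPKM. The guanylate-binding protein Gbp2 had 156 FPKM against 18.6 FPKM, and the tryptophan-degrading enzyme Ido1 had 154 FPKM against 25.0 FPKM. Of 43 other type I and III induced genes 25 were highest in it, and of 15 nucleic acid sensors and adaptors 4 were (Ddx58, Ifih1, Dhx58 and Zbp1). Of 14 receptor and signalling genes 3 were highest there: the transcription factors Stat2 and Irf9 and the inhibitor Socs1. Stat2 had 17.4 FPKM against at most 10.6 FPKM elsewhere, whereas the receptor gene Ifnar1 had 10.7 FPKM against a mean of 11.5 FPKM in the other TM libraries. Which interferon, if any, lay behind the values of TM replicate 8 was not tested.

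Most of the interferon genes themselves were listed at or near 0. Ifnb1, Ifna1, Ifne, Ifnl2 and Ifnl3 were listed at 0 in 22 of 22 libraries. Ifng was listed at 0 in 18 and at 0.109 FPKM in TM replicate 8, and its highest value was 0.169 FPKM, in an HMLS library. Ifnk was above 0 in all 22 libraries and was the interferon gene that passed the filter. It ranged from 1.26 to 3.12 FPKM in DSS, from 0.969 to 3.84 FPKM in HMLS and from 0.520 to 3.08 FPKM in TM, against 0.686 to 2.19 FPKM in CON, and stood at 0.905 FPKM in TM replicate 8.

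Markers of immune cells in TM replicate 8 are given beside these values. The summed level of 8 T and NK cell markers was 15.2 FPKM, the highest of 22 libraries, against 4.14 to 12.5 FPKM in the other TM libraries, 6.15 to 13.6 FPKM in DSS, 5.35 to 10.2 FPKM in HMLS and 6.48 to 12.1 FPKM in CON. That rank rested on Gzmb, the T and NK cell protease granzyme B, which was highest there at 5.84 FPKM. The other 7 markers summed to 9.30 FPKM in TM replicate 8, inside the 3.60 to 11.4 FPKM of the other TM libraries. The neutrophil sum was 5.57 FPKM against 14.0 to 96.4 FPKM in the other TM libraries, and the macrophage sum was 130 FPKM against 136 to 201 FPKM. Its B cell sum was 4.71 FPKM against 6.22 to 25.8 FPKM in the other TM libraries. The part of these cells in the values of the members was not tested.

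**Figure D4:**
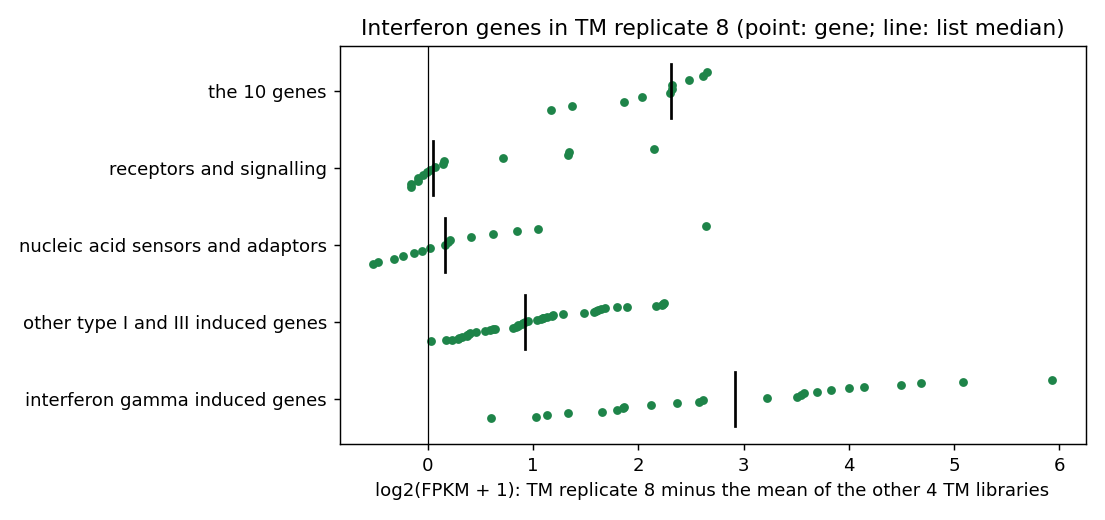
Each point is a tested gene, placed by its log2(FPKM + 1) in TM replicate 8 minus the mean of the other 4 TM libraries, and lines mark list medians. The medians are 2.31 for the 10 genes and 2.92 for the interferon gamma list, and receptors and sensors centre near 0.

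Other libraries stood at the low and high ends of their groups. DSS replicate 5 had the lowest value of all 22 libraries in 6 of 10 members and averaged 0.90 below the CON mean on the log2 scale. CON replicate 5 averaged 0.55 above it and CON replicate 1 averaged 0.64 below it. DSS replicate 7, the library with the lowest mapping at 82.3%, averaged 0.44 above the CON mean.

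Within DSS, TM and CON the members varied more than most genes, and within HMLS they did not. The median SD of the 10 members on the log2 scale was 0.58 in DSS, 0.31 in HMLS, 1.04 in TM and 0.44 in CON, against medians over all genes of 0.29, 0.26, 0.22 and 0.20. Without TM replicate 8 the TM value was 0.30 against 0.23. In DSS and CON 10 of 10 members had an SD above the median of all genes, and in HMLS 6 of 10 had. Set against genes of similar level (within 0.5 on the log2 scale), the median member had a larger SD than 87.8% of genes in DSS, 48.8% in HMLS, 98.7% in TM and 91.0% in CON, and than 60.9% in TM without replicate 8. In HMLS the SD of Usp18 exceeded that of 9.97% of such genes, and that of Ifit1 exceeded 98.9%. Usp18 reached at most 0.822 FPKM in HMLS, where adding 1 compresses the spread. Its SD there was 0.297 with a pseudocount of 0.1, against 0.133 with 1.

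Members also moved together from library to library within the groups. With each group mean removed, the 45 pairs of members had a median Pearson's r of 0.76 (0.19 to 0.91) over 22 libraries and of 0.51 (-0.17 to 0.82) over 21 libraries without TM replicate 8, where 40 of 45 were positive. These correlations share library depth and RNA composition and are given as a description. Bst2 followed the others least, with r = 0.44 against the mean of the other 9 genes and -0.04 without TM replicate 8. Oasl2 followed them most closely without that library, with r = 0.85.

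**Figure D5:**
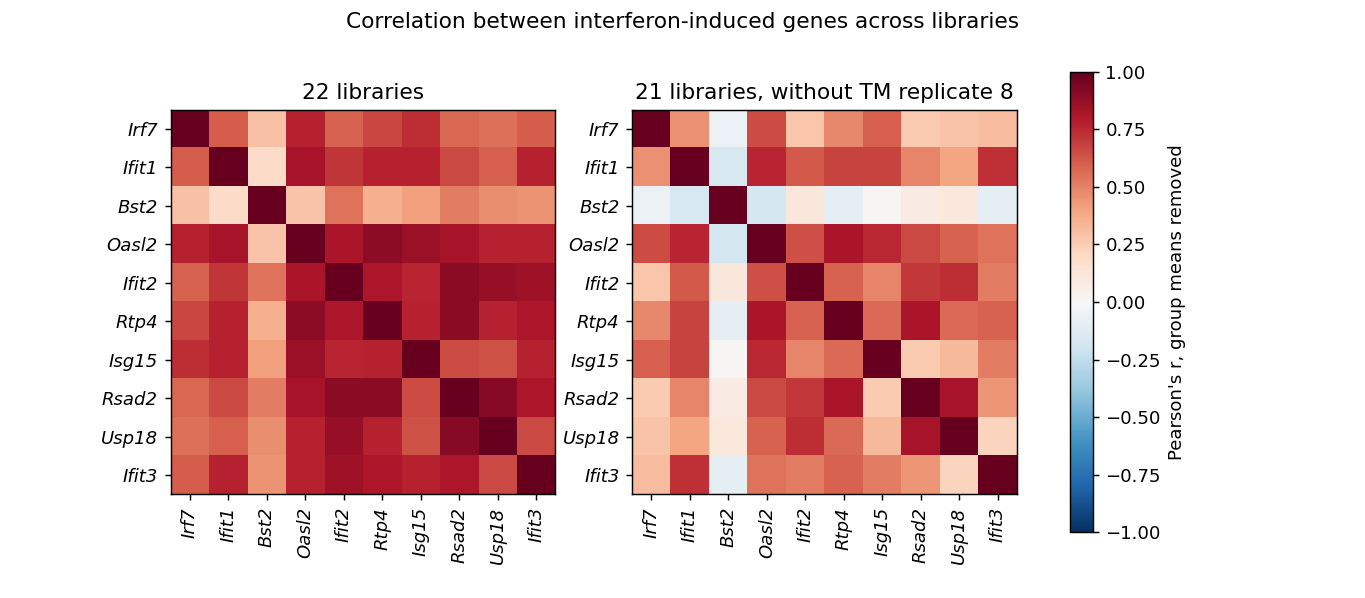
The colour of each cell is Pearson's r between a pair of the 10 genes with group means removed, over 22 libraries on the left and over 21 without TM replicate 8 on the right. The row of Bst2 fades to near 0 on the right, and most other pairs stay positive.

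Among genes outside the list with a mean of at least 1 FPKM, Cmpk2, a mitochondrial nucleotide kinase that lies beside Rsad2, was most like the members, with r = 0.93 over 22 libraries and 0.82 over 21 without TM replicate 8. The next were Irgm2, Apol9a, Gbp2, Gbp3, Igtp, Gm12250, Gm5431, Irgm1 and Herc6, with r between 0.90 and 0.92. Without TM replicate 8 the 10 most alike kept 5 of these (Cmpk2, Apol9a, Gbp3, Gm5431 and Irgm2). The median r of all 13064 other genes was 0.01.

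Upstream of the members, 2 receptor genes were higher in every colitis group. In DSS vs CON 3 of 14 receptor and signalling genes were called higher and 1 lower, where 14% and 13.1% of all genes were. Ifnlr1, the specific chain of the type III receptor, rose by 0.76 ± 0.126 in DSS (limma adjusted p = 0.00128), by 0.64 ± 0.146 in HMLS (adjusted p = 0.0047) and by 0.65 ± 0.105 in TM (adjusted p = 0.000845). Ifngr1, a chain of the interferon gamma receptor, averaged 158 ± 27.6 FPKM in DSS (SD, n = 5), 172 ± 38.8 FPKM in HMLS (n = 4) and 153 ± 9.62 FPKM in TM (n = 5), against 98.8 ± 12.4 FPKM in CON (n = 8). It rose by 0.67 ± 0.125 in DSS (limma adjusted p = 0.00234), and both receptor genes passed without each library in turn but not with the percent of reads mapped as a covariate (0.59 for Ifnlr1 and 0.60 for Ifngr1; adjusted p = 0.194 and 0.198). That covariate left 26 genes called in DSS vs CON, and of the 16 called genes named from the 4 lists 0 remained called. Ifnar1, a chain of the type I receptor, differed by -0.05 ± 0.081 in DSS, with a limma adjusted p of 0.694.

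Signal transducers gave mixed values. Stat2 differed from CON by 0.14 ± 0.218 in DSS (limma adjusted p = 0.649), and without DSS replicate 5 Stat2 was called higher at 0.44 (adjusted p = 0.00846). Irf9 fell by 0.51 ± 0.168 in HMLS (limma adjusted p = 0.0291) and differed by -0.45 ± 0.206 in DSS (adjusted p = 0.117). Without TM replicate 8, Irf9 was called lower in TM at -0.56 (limma adjusted p = 0.00727), against -0.29 with it, which was not called. Socs3, an inhibitor of cytokine signals, was called higher in DSS at 1.47 ± 0.492 (adjusted p = 0.0414) and in TM at 1.80 ± 0.390 (adjusted p = 0.00571), and the phosphatase gene Ptpn6 was called lower in DSS at -0.50 ± 0.158 (adjusted p = 0.0317). In DSS the call of Socs3 was lost without any 1 of DSS replicates 1, 2 and 7 or CON replicates 1, 2, 5 and 6 (limma adjusted p up to 0.105). That of Ptpn6 was lost without any 1 of DSS replicates 5 and 6 or CON replicates 1, 5 and 6 (up to 0.0794). Socs3 also lost it with upper quartile scaling (limma adjusted p = 0.0609), and Ptpn6 with the replicate number as a block (adjusted p = 0.0769).

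Among nucleic acid sensors and adaptors, 4 of 14 genes were called higher and 1 lower in DSS vs CON, where 14% and 13.1% of all genes were. The 4 were Tbk1, the kinase that activates Irf3 and Irf7, at 0.44 ± 0.094 (limma adjusted p = 0.00459), the adaptors Myd88 at 0.44 ± 0.103 (adjusted p = 0.00697) and Ticam1 at 0.41 ± 0.097 (adjusted p = 0.00753), and the sensor Zbp1 at 1.27 ± 0.352 (adjusted p = 0.0172). Of these, Zbp1 lost its call without DSS replicate 7 (1.05, limma adjusted p = 0.0549) and with the replicate number as a block (adjusted p = 0.0938). The calls of all 4 were lost with the mapping covariate (limma adjusted p = 0.178 to 0.574). Tbk1 and Myd88 were also called higher in HMLS, at 0.64 and 0.43, and in TM, at 0.35 and 0.50.

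Some of the other targets were called in DSS vs CON, in both directions. Of 41 other type I and III induced genes 1 was called higher and 6 lower, and of 21 interferon gamma induced genes 3 were called higher and 1 lower, where 14% of all genes were called higher and 13.1% lower. Trim25, a ubiquitin ligase of the RNA sensing pathway, averaged 47.7 ± 14.5 FPKM in DSS (SD, n = 5) and 21.6 ± 7.28 FPKM in CON (n = 8), and rose by 1.10 ± 0.236 (limma adjusted p = 0.00493). Ifi27 fell by 0.93 ± 0.122 (adjusted p = 0.000414), Ifi27l2a by 1.81 ± 0.434 (adjusted p = 0.00935) and Trim30a by 0.68 ± 0.170 (adjusted p = 0.0104). The called interferon gamma induced genes were the immunoproteasome subunit Psmb8 at 0.74 ± 0.192 (limma adjusted p = 0.0122), the peptide transporter Tap2 at 0.63 ± 0.169 (adjusted p = 0.0147), Ido1 at 1.54 ± 0.508 (adjusted p = 0.0383) and Ciita, the regulator of MHC class II, at -0.70 ± 0.230 (adjusted p = 0.0348). The call of Ido1 was lost without any 1 of DSS replicates 2, 6 and 7 or CON replicates 1, 2, 3, 5, 6 and 7, and that of Ciita without any 1 of DSS replicates 5, 6 and 7 or CON replicates 1 to 6 (limma adjusted p up to 0.107 and 0.0858). With the mapping covariate none of these 8 genes was called (limma adjusted p = 0.115 to 0.832). With the replicate number as a block Psmb8 and Ido1 lost their calls (limma adjusted p = 0.0744 and 0.054). Ido1 and Ciita lost theirs with all 22 libraries in the fit (limma adjusted p = 0.112 and 0.0643), and Ciita also with no filter on low values (adjusted p = 0.0533).

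These list counts were also taken without DSS replicate 5, left out after the data were seen because it was lowest in most members. They were not taken without the other DSS libraries, so they cannot show whether this library mattered more than those. Leaving out a library picked for low values favours higher values in DSS for genes that move with the members. Without DSS replicate 5, 11 of 21 interferon gamma induced genes were called higher and 0 lower. Of 41 other type I and III induced genes 9 were called higher and 3 lower, where 13% of all 13413 genes tested were called higher and 10.7% lower. The 3 that stayed lower were Ifi27, Ifi27l2a and Trim30a. Among those then called higher, named after their values were seen, were the GTPases Iigp1 and Irgm2, the transcription factors Irf1 and Irf8 and the immunoproteasome subunit Psmb9. Of the 10 members, 1 was called without that library, Ifit2, which was higher.

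In HMLS vs CON, 3 of 14 receptor and signalling genes were called higher and 4 lower, and 2 of 14 sensors and adaptors were called higher and 4 lower, where 17.5% and 16.6% of all genes were. Of 40 other type I and III induced genes 1 was called higher, Trim25 at 1.19 ± 0.197, and 9 lower, among them Ifi27 at -0.75 ± 0.150, Ifi27l2a at -2.10 ± 0.526 and Trim30a at -0.78 ± 0.167. Of 20 interferon gamma induced genes 2 were called higher, Psmb8 and Tap2 at 0.61 and 0.56, and 2 lower, Gbp4 at -0.79 and Ciita at -1.05. In TM vs CON the counts were 4 higher and 0 lower of 14 receptor and signalling genes, 2 and 3 of 15 sensors and adaptors, 2 and 3 of 42 other type I and III induced genes, and 1 and 0 of 21 interferon gamma induced genes, where 14.3% and 11.8% of all genes were. Without TM replicate 8 the last 2 lists had 2 higher and 7 lower of 40, and 1 higher and 4 lower of 20 (Gbp4, Gbp6, Igtp and Irgm1), where 11% of all genes were called higher and 9.37% lower.

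Some markers of macrophages and B cells were called lower in HMLS and in DSS, whereas Irf7 was called lower in all 3 colitis groups. Among all genes 16.6% were called lower in HMLS, 13.1% in DSS and 11.8% in TM. Of 8 macrophage markers 5 were called lower in HMLS vs CON and 2 in DSS vs CON, and 0 were called higher in either. Their summed level was 36.0 to 108 FPKM in HMLS and 56.9 to 108 FPKM in DSS, against 73.8 to 188 FPKM in CON. Of 5 B cell markers 4 were called lower in HMLS and 3 in DSS, with sums of 0.523 to 4.96 FPKM in HMLS and 2.07 to 11.8 FPKM in DSS, against 3.23 to 48.6 FPKM in CON. In TM 0 of 8 macrophage markers and 0 of 5 B cell markers were called, with sums of 130 to 201 FPKM and 4.71 to 25.8 FPKM. No T and NK cell marker was called in HMLS, DSS or TM, and the neutrophil gene S100a8 was called higher in all 3, at 2.31 in HMLS, 2.41 in DSS and 2.98 in TM.

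Markers of cells outside the immune system also differed. All 4 adipocyte markers were called lower in DSS and in TM and 0 in HMLS, with sums of 30.4 to 103 FPKM in DSS, 21.6 to 77.4 FPKM in TM and 30.1 to 397 FPKM in HMLS, against 60.0 to 835 FPKM in CON. Of 5 smooth muscle markers 2 were called lower in DSS (Des and Cnn1), 3 in TM (these and Acta2) and 0 in HMLS. Of 3 endothelial markers 1 was called lower in DSS (Kdr), 2 in HMLS (Kdr and Cdh5) and 0 in TM. Of 8 epithelial markers 2 were called higher in DSS, 2 in HMLS and 3 in TM, and Car1 was called lower in TM.

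Of 6 markers of plasmacytoid dendritic cells, which are known to express Irf7 constitutively, Siglech did not pass the filter and was not tested. It lay between 0 and 0.422 FPKM in DSS, 0 and 0.341 FPKM in HMLS and 0 and 0.175 FPKM in TM, with means of 0.211, 0.188 and 0.104 FPKM, against 0.0924 to 0.939 FPKM with a mean of 0.643 FPKM in CON. Cox6a2 was listed at 0 in 20 of 22 libraries and Cd300c in 18. Ly6d differed from CON by 0.43 in DSS, -0.27 in HMLS and 0.16 in TM. Pacsin1 differed by 0.11 in DSS, -0.47 in HMLS and 0.41 in TM, and neither gene was called. Klk1 was called lower in HMLS at -1.36 and in TM at -0.71, and was not called in DSS at -0.66. Klk1 lay between 246 and 1638 FPKM over the 22 libraries, where Siglech reached at most 0.939 FPKM. The values of Klk1 are therefore not read here as a level of these cells. The sum of the 6 markers was carried by Klk1 and is not read so either. It was 250 to 911 FPKM in HMLS, 323 to 1473 FPKM in DSS and 421 to 1282 FPKM in TM, against 928 to 1647 FPKM in CON. The part of any of these cells in the lower Irf7 and Usp18 was not tested.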

How the data were processed

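Colon RNA for the 22 libraries was extracted with Trizol, and a TruSeq stranded kit for total RNA was used, per the labels' protocols. Tools listed in the submitters' processing notes are bcl2fastq 2.20, Bowtie, TopHat2 2.0.13 and Cufflinks 2.2.0, and the build is mm10. The authors deposited 1 table of expression values, read here as FPKM because the notes name Cufflinks and the values have decimals; the table names no unit. They also deposited the count of reads and the percent of reads mapped for each library. Read counts of single genes were not used here, so the depth behind a gene's value is unknown and precision rests on the spread between libraries. FPKM divides by each library's own total, so a few abundant genes that rise lower the others.

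The test was limma 3.58.1 (R 4.3.3) on log2(FPKM + 1), with an intensity trend and robust variance. Genes had to reach 1 FPKM in 4 or more of the libraries fitted. The p-values were adjusted over all genes tested (Benjamini-Hochberg, threshold 0.05). Comparisons with CON used the 2 groups compared, and those between waters shared 1 fit of the 3 colitis groups. The scripts were tested on simulated data. Python 3.11.15 computed descriptions. Promoters came from RefSeq (GRCm38.p6).

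The 10 members and all lists were chosen with earlier results of these data known. The rule for naming took the 10 members, up to 4 called genes of each interferon list with the smallest p in DSS vs CON (2 where none was called), a fixed panel (Stat2, Irf9, Ifnar1, Ifnlr1, Ifng and Ifnb1; 1 further gene is not reported here) and the 10 genes most correlated with the members. Same-numbered libraries of TM and DSS correlated above 0.1 in 3 of 3 pairs after group means were removed (0.137 to 0.46), so that comparison was also fitted with the number as a block. Of the marker lists, Adgre1 was found as Emr1 and Ly6g was not matched. Alternatives were another pseudocount, no filter, upper quartile scaling, no trend, all libraries in the fit, the replicate block, mapping as a covariate and leaving out each library.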

Additional observations from a re-analysis of the deposited data

Results flagged for a closer look

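For 6 sets of values 1 library lay far from the rest of its group. The measure is the gap to the nearest other library divided by the range of the group on the log2 scale, and the bound is Dixon's 95% critical value, 0.71 for 5 libraries and 0.829 for 4. Chance alone marks about 1 in 20 groups.

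In TM, replicate 8 was the high library for 4 members, with ratios of 0.841 for Ifit3 at 8.41 FPKM, 0.871 for Oasl2 at 19.6 FPKM, 0.820 for Usp18 at 11.5 FPKM and 0.834 for Rsad2 at 13.6 FPKM. Over all 13786 genes that library was marked as high in 0.595% (82 genes).

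In DSS, replicate 5 was the low library for Isg15 at 0.415 FPKM, with a ratio of 0.811, and over all genes it was marked as low in 1.55%. In HMLS, replicate 6 was the low library for Rtp4 at 1.62 FPKM, with a ratio of 0.941, and over all genes it was marked as low in 0.392%.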

How the results depend on the processing

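The direction of Irf7 against CON was the same in every alternative run, and no trend with no robust variance changed no call of a member. With the replicate number as a block, limma called 0 members (Irf7 had an adjusted p of 0.133) and 2176 genes in DSS vs CON, 1 member and 753 genes in HMLS vs CON, and 2000 genes in TM vs CON, against 3655, 4565 and 3510 genes without it. Only TM vs DSS met the criterion for pairing, and there the block changed no call; in DSS vs CON, HMLS vs CON and TM vs CON 2 of 5, 0 of 4 and 3 of 5 same-numbered pairs correlated above 0.1, and the libraries share only a number (in HMLS vs DSS 1 of 2, in HMLS vs TM 0 of 4). With the percent of reads mapped as a covariate 0 members were called in DSS vs CON, HMLS vs CON and TM vs CON, and 26 genes in DSS vs CON. With all 22 libraries in the fit 1 member was called in HMLS vs CON and 0 in TM vs CON, and with no filter on low values 0 in TM vs CON. The cause was not tested.

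Leaving out 1 library at a time gave 1 to 4 members called in HMLS vs CON and 0 to 1 in TM vs CON, and 0 to 1 genes in HMLS vs DSS and 0 to 3 in HMLS vs TM, where the highest counts were without HMLS replicate 3. Uncalled differences changed sign under some alternatives. Under upper quartile scaling Ifit1 was -0.0079 and Bst2 -0.0213 in DSS vs CON, and Ifit2 was -0.011 in HMLS vs CON. With the replicate block Bst2 was -0.0145 in DSS vs CON, Isg15 -0.16 in TM vs CON, Irf7 -0.0483 and Rsad2 -0.10 in HMLS vs DSS, Usp18 -0.0899 and Bst2 -0.36 in TM vs DSS, and Ifit1 -0.0892 in HMLS vs TM. With the mapping covariate Rsad2 was -0.26, Bst2 -0.57 and Stat2 -0.0842 in DSS vs CON, Isg15 0.0758, Oasl2 0.00054, Usp18 0.29, Rtp4 0.13 and Bst2 0.14 in HMLS vs DSS, Ifit2 0.26 in TM vs DSS, and Ifit1 -0.0433 in HMLS vs TM. With a pseudocount of 0.1 Ifit3 was 0.0105 in HMLS vs DSS and Rsad2 0.0605 in HMLS vs TM.

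Leaving out each library also turned signs, over these ranges. In DSS vs CON these were Ifit1 (-0.0639 to 0.37), Isg15 (-0.21 to 0.24), Usp18 (-0.56 to 0.15), Rsad2 (-0.11 to 0.24) and Bst2 (-0.10 to 0.22), and in HMLS vs CON Ifit2 (-0.0683 to 0.22). In TM vs CON they were Ifit1 (-0.11 to 0.56), Ifit2 (-0.12 to 0.62), Ifit3 (-0.35 to 0.28), Isg15 (-0.36 to 0.31), Usp18 (-0.38 to 0.37) and Rsad2 (-0.061 to 0.61). In HMLS vs DSS they were Ifit1 (-0.086 to 0.63), Ifit3 (-0.14 to 0.13), Irf7 (-0.10 to 0.28) and Rtp4 (-0.27 to 0.10). In TM vs DSS they were Ifit1 (-0.21 to 0.47), Ifit2 (-0.57 to 0.17), Ifit3 (-0.0711 to 0.55), Isg15 (-0.28 to 0.39), Irf7 (-0.10 to 0.31), Oasl2 (-0.37 to 0.25), Usp18 (-0.26 to 0.72), Rsad2 (-0.17 to 0.55), Rtp4 (-0.22 to 0.40) and Bst2 (-0.0374 to 0.42). In HMLS vs TM they were Ifit1 (-0.25 to 0.46), Ifit2 (-0.49 to 0.24), Ifit3 (-0.57 to 0.0512), Irf7 (-0.12 to 0.21), Oasl2 (-0.59 to 0.0619), Rsad2 (-0.20 to 0.47) and Rtp4 (-0.48 to 0.15).

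The groups of 4 to 8 libraries, and values near 1 FPKM for Ifit3 and Usp18, limit what can be resolved. The list counts without DSS replicate 5 and without TM replicate 8, and the SDs and correlations without TM replicate 8, were added after the data were seen.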
